A study of Homo sapiens with 3 samples.

Results

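Mitochondrial ribosomal protein genes are nuclear genes for the proteins of the ribosome inside mitochondria. They were taken as the protein-coding genes whose symbol is MRPL or MRPS followed by digits and at most 1 letter, which gave 76 of the 56632 gene IDs in the deposited tables. Of the 78 such symbols in the annotation, MRPL45 and MRPS21 had no matching gene ID and were not analysed here. RNA was sequenced from MCF10Ca1h, a human breast cancer cell line of the MCF10 series, in 3 groups of 1 library each: untreated cells (NT, with no time given), cells given the PADI4 inhibitor GSK484 for 72 h (GSK484) and cells exposed to a control compound, also for 72 h (CON). All cells grew in DMEM/F12 with horse serum. No dose is given, and the labels name the control compound differently from the deposited table, so it is called the control compound here. PADI4 is an enzyme that converts arginine residues in histones and other proteins to citrulline, and the study's title asks about its part in breast cancer stem cells.

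The mitochondrial ribosome translates only the mRNAs of the mitochondrial genome, which encode core subunits of the respiratory chain and ATP synthase. Its RNAs come from the mitochondrial genome, while every one of its proteins is made in the cytosol from nuclear genes and imported. Some of these proteins descend from bacterial ribosomal proteins and others exist only in mitochondria. Nuclear respiratory factors and ETS family factors are textbook regulators of nuclear genes for mitochondrial proteins.

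The libraries summed to 92980847 expected counts for CON, 77220120 for GSK484 and 70555229 for NT, so CON was the deepest. With 1 library per group, no difference below has a check against replicate spread, and no test between conditions was possible. Counting intervals are 95% exact binomial (Clopper-Pearson) intervals and cover counting error only, and PCR copies could not be separated from molecules. Of the epithelial markers, all 9 were measured, with KRT18 at 4467 CPM (expected counts scaled to library size) in NT, with 4626 in CON and 4743 in GSK484, while KRT14 was low, at 10.2, 11.9 and 9.58 CPM. The fibroblast genes COL3A1 and LUM and the leukocyte genes PTPRC and CD3E had a count of 0 in all libraries, while COL1A1 was at 5.88 to 7.56 CPM and CD68 at 3.58 to 4.10 CPM. Summed over each list, NT, CON and GSK484 had 6.06, 6.81 and 7.81 CPM of 4 fibroblast genes, 5.17, 4.36 and 4.77 CPM of 4 leukocyte genes, and 0.968, 1.59 and 0.937 CPM of 2 endothelial genes, mainly CDH5. Their part in the results was not tested. A count of 0 leaves room for 3 counts, or 0.0329 CPM for CON, 0.0385 for GSK484 and 0.0421 for NT. In such bulk RNA, fewer cells of a type and less RNA per cell cannot be told apart.

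The promoters of 8 genes on which the results below turn are shown first. MRPL12 had the highest level, MRPL1 and MRPS10 were highest against CON, MRPL50 and MRPS18C were among the lowest against CON, MRPL30 had the largest difference of any member, and MRPS11 and MRPL46 start back to back on opposite strands. Each run is the coding strand from 250 bases before to 30 bases after an annotated start, from RefSeq on GRCh38.p14. Capitals mark matches, on either strand, to 5 short motifs: GCGCANGCG for NRF1, CCGGAAG for ETS factors, AAGATGGCG for YY1, GGGGCGGGG for SP1 and AGCCAAT for NF-Y. The windows lie at chr17:81703117-81703396 (plus strand) for MRPL12, chr4:77862580-77862859 (plus strand) for MRPL1, chr6:42217832-42218111 (minus strand) for MRPS10 and chr9:101398589-101398868 (minus strand) for MRPL50. The others lie at chr4:83455808-83456087 (plus strand) for MRPS18C, chr2:99180934-99181213 (plus strand) for MRPL30, chr15:88467458-88467737 (plus strand) for MRPS11 and chr15:88467359-88467638 (minus strand) for MRPL46.
MRPL12: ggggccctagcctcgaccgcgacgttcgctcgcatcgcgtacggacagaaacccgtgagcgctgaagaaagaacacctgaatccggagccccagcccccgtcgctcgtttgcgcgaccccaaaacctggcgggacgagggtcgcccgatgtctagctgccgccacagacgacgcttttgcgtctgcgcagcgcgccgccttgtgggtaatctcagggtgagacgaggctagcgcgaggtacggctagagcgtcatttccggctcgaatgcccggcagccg
MRPL1: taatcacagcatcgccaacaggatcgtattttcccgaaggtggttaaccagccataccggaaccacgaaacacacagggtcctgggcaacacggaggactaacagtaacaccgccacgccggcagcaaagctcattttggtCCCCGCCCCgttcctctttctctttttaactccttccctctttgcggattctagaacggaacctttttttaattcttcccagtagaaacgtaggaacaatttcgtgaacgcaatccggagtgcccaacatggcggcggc
MRPS10: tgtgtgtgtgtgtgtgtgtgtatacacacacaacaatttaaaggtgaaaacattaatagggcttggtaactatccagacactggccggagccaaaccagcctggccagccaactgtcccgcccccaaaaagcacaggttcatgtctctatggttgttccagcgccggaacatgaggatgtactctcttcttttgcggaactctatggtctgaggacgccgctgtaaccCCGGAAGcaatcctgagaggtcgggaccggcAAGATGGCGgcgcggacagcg
MRPL50: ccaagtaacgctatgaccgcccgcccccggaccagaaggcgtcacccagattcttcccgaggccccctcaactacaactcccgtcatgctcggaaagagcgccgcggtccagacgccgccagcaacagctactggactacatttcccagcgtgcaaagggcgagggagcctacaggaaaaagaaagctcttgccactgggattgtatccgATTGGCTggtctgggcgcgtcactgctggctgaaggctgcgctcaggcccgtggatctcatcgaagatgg
MRPS18C: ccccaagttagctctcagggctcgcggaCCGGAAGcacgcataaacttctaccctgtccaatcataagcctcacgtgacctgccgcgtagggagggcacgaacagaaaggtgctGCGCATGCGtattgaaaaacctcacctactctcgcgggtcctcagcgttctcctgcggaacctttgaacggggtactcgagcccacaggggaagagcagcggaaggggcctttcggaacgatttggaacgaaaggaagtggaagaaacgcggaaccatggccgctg
MRPL30: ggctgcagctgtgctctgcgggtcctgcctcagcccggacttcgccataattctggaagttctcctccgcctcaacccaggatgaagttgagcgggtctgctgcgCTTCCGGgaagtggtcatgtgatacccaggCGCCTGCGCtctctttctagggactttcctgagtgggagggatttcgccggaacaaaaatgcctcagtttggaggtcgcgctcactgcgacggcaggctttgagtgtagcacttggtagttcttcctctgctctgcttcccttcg
MRPS11: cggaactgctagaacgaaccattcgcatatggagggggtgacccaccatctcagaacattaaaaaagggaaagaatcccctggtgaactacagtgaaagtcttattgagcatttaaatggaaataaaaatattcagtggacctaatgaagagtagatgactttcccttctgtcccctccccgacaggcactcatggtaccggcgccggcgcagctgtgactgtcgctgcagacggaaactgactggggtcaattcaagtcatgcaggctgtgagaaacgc
MRPL46: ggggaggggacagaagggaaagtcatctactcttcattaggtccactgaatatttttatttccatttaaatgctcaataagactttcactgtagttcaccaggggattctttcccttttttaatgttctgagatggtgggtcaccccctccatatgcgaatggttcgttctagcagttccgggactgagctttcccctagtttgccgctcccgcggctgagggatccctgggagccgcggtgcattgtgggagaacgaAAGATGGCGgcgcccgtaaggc

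In the MRPS10 window the ETS match begins 22 bases before the start and the YY1 match at base 10 after it. MRPL46 holds a YY1 match at base 9, so both place this motif just inside the transcript. MRPS18C and MRPL30 each hold an NRF1 and an ETS match. The MRPL1 match is to SP1 and the MRPL50 match to NF-Y, and MRPL50 also has a YY1 match that runs past the end of the bases shown. No match lies in the MRPL12 and MRPS11 windows, which says only that these letters are not there. The MRPS11 and MRPL46 windows overlap and are read from opposite strands.

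Over all windows of 300 bases (250 before to 50 after a start), 67 members matched with 83 windows, and 9 members had no entry. An ETS match lay in 38.6% of member windows, against 17.2% of the 14146 windows of measured protein-coding genes and 12.8% of all 22199 windows. YY1 matches lay in 15.7% of member windows, against 3.52% and 2.41%. Of the 13 member windows with YY1, 11 held it as written and 2 as its reverse complement. NRF1 matches lay in 16.9%, against 12.7% and 9.64%. For SP1 the shares were 22.9%, 25.3% and 20.6%, and for NF-Y 10.8%, 8.79% and 8.06%. At least 1 of the 5 motifs was found in 73.5% of member windows, 51.8% of measured windows and 42.2% of all windows. Windows of 1 gene can overlap, so these shares are descriptions. In these counts the ETS and YY1 letters lay at higher shares in member windows than in the others, and SP1 letters at a similar one.

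Divergent starts were also common among these genes. By GENCODE 29 positions, 29 of 76 members (38.2%) had a protein-coding gene starting within 1000 bases on the opposite strand, against 2097 of 11778 measured protein-coding genes (17.8%). Partners included PSMA2, a proteasome gene, beside MRPL32, TCP1, a chaperonin gene, beside MRPL18, SARS2, a mitochondrial seryl-tRNA synthetase, beside MRPS12, and NDUFS6, of respiratory complex I, beside MRPL36.

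All 76 genes were expressed at 1 CPM or more in every library, so no member was lost to a filter on low values. In TPM, the unit of transcript abundance that accounts for length and allows levels to be compared between genes, the median member was at 93.4 in NT, with 96.7 in CON and 94.4 in GSK484. The median over libraries and members was 94.2 TPM, with quartiles of 52.7 and 160.1, against 13.1 for measured protein-coding genes. The members summed to 8889, 9057 and 9197 TPM, and took 0.639%, 0.678% and 0.663% of expected counts. Levels of single members spanned a 32.3-fold range. Members were short, with a median effective length of 889.7 bases against 2134 for measured protein-coding genes, and had a median GC content of 47.7% (33.5% to 71.9%).

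**Figure D1:**
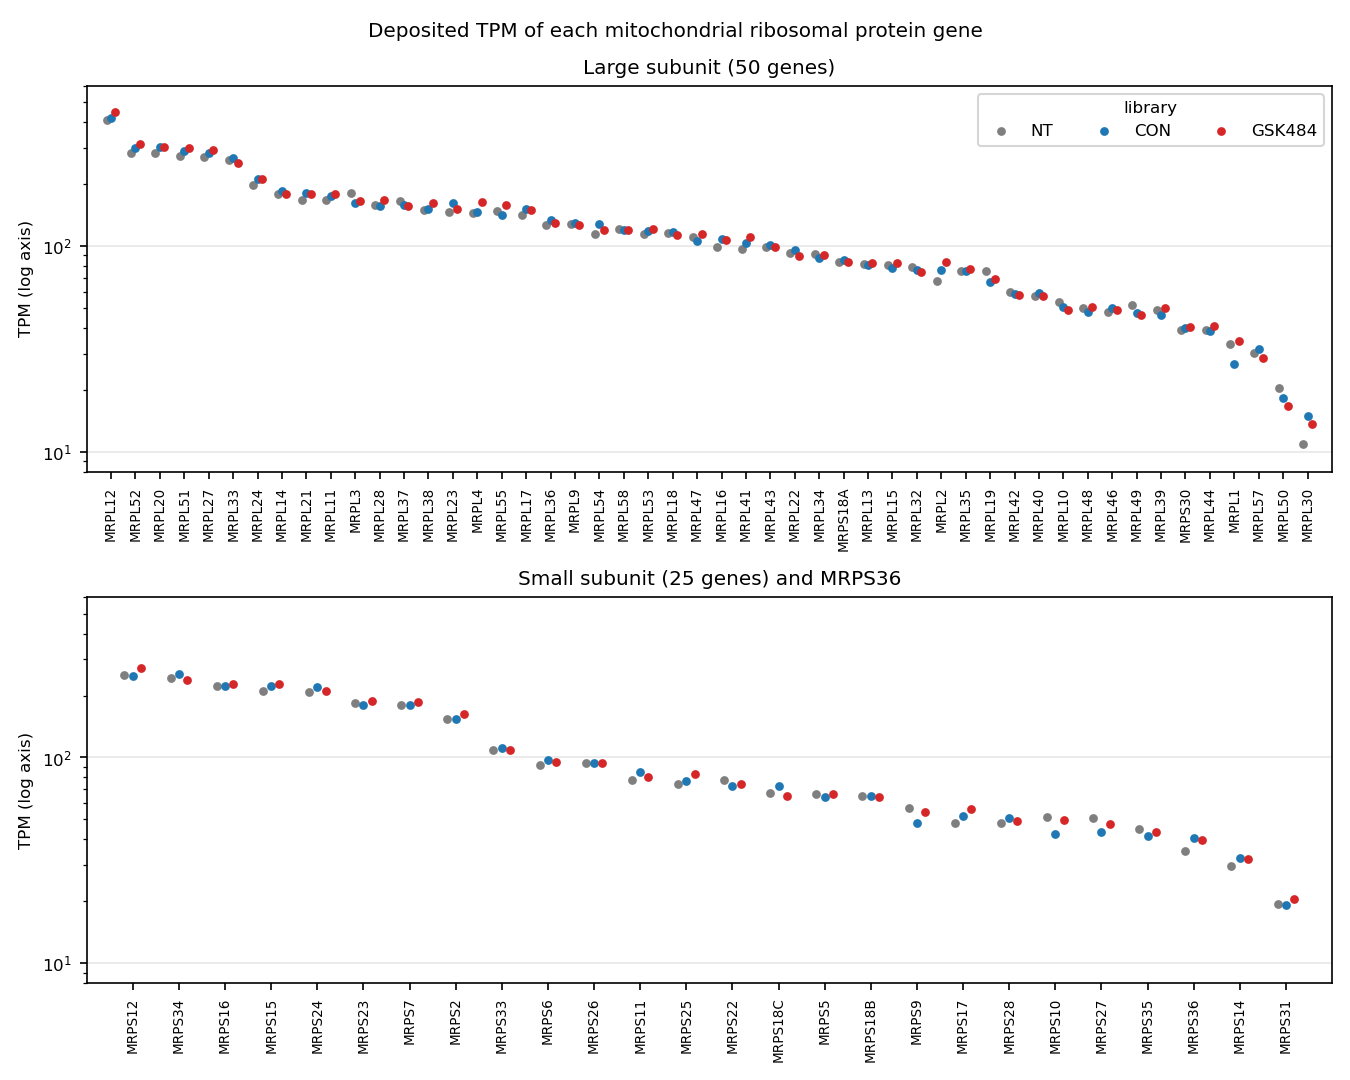
Deposited TPM (log axis) of each member in NT, CON and GSK484, 1 point per library, sorted by mean level within the large subunit (50 genes) and the small subunit with MRPS36. MRPL12 stands highest at 408 to 450 TPM and MRPL30 lowest at 10.9 to 15.0 TPM, and the 3 libraries lie close together for nearly every gene.

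MRPL12, the protein of the flexible stalk that recruits translation factors and also a partner of the mitochondrial RNA polymerase, was highest, at 408 TPM in NT, with 418 in CON and 450 in GSK484. MRPL52 followed at 283, 299 and 313 TPM. MRPL20 was at 283, 304 and 304 TPM. Among the other highest members, MRPL51 had 273, 290 and 300 TPM, MRPL27 had 270, 282 and 292, and MRPL33 had 262, 269 and 253. All 6 belong to the large subunit. The neighbours in this order, MRPL52 and MRPL20, differed by less in mean level than either differed between libraries.

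At the other end, MRPL30 had 10.9, 15.0 and 13.6 TPM in NT, CON and GSK484, a level that depends on how reads were divided with an overlapping gene (below). MRPL50 had 20.5, 18.2 and 16.8 TPM. MRPS31 had 19.4, 19.2 and 20.4 TPM, which overlaps MRPL50. MRPL57 had 30.1, 31.5 and 28.6 TPM. These lowest members thus lay below the lower quartile of the set.

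By subunit, the 50 members of the large subunit had a median of 105.3 TPM in NT, with 106.6 in CON and 112.0 in GSK484, and the 25 of the small subunit 77.5, 77.1 and 80.0. Origin was taken from protein names, with uL, bL, uS and bS for a bacterial counterpart and mL and mS for mitochondria-specific. The 45 members with a bacterial counterpart had a median mean level of 115.3 TPM, and the 30 named as mitochondria-specific 76.7. Names and places differ for a few. MRPS30 (39.0, 40.2 and 40.6 TPM) and MRPS18A (84.1, 85.3 and 83.4 TPM) carry small subunit names, but their proteins sit in the large subunit. MRPS18A, MRPS18B and MRPS18C are relatives of 1 bacterial protein, S18, though MRPS18A and MRPS18B are named as mitochondria-specific. MRPS18B had 65.2, 65.3 and 64.4 TPM and MRPS18C 67.1, 72.7 and 64.9 TPM, so the 3 relatives stood within a narrow range. MRPS36 encodes no ribosomal protein but KGD4, a subunit of the 2-oxoglutarate dehydrogenase complex, and had 35.2, 40.7 and 39.8 TPM.

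GSK484 against CON sets the inhibitor beside the control compound at the same time. Most members were slightly lower in GSK484. The median log2 fold of CPM was -0.084 (middle 50% of members -0.14 to -0.021), against -0.0051 over all 13199 genes measured, while in deposited TPM the members' median was 0.019 against 0.097 over all genes. The distance from the all-gene median was -0.079 by CPM and -0.078 by TPM. Both units come from the same counts, so their likeness is no independent check. With the GC and length trend removed (below), the distance was -0.0086. By CPM, 4 members were higher and 47 lower beyond counting error, and 25 were within it, where 26.9% of all genes were higher and 27.4% lower. A fold of at least 1.2 was reached by 1 member in each direction, MRPL1 higher and MRPS36 lower, against 11.2% and 6.25% of all genes. No member reached 2-fold in any comparison, and 0.47% of genes did in this one. In deposited TPM, 28 members were higher and 12 lower, against 49.9% and 11.8% of all genes.

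**Figure D2:**
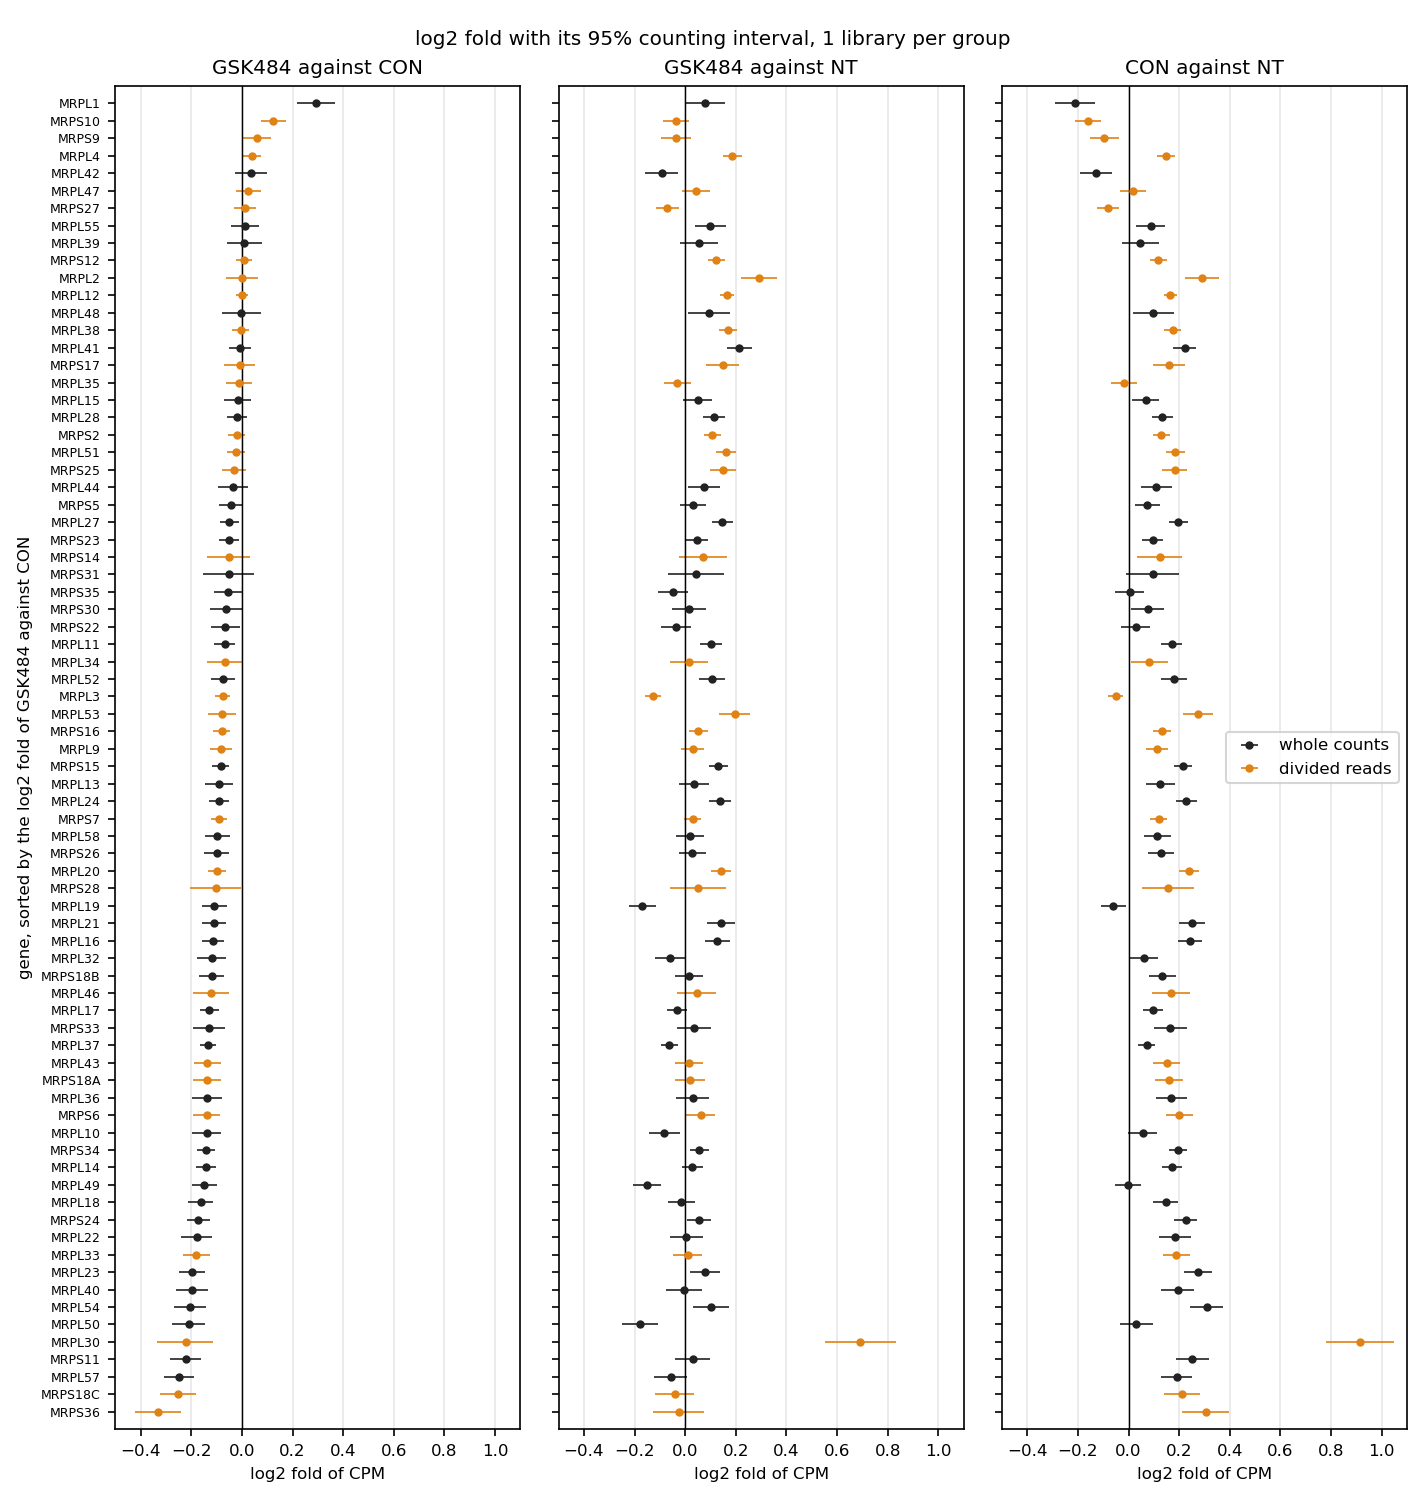
log2 fold of CPM with its 95% counting interval for the 76 members in the 3 comparisons, sorted by GSK484 against CON; black points have whole counts and orange points have reads divided with other genes. In GSK484 against CON 47 members lie below 0 beyond counting error and 4 above, while in CON against NT 60 lie above and 7 below, and MRPL30 stands apart from the rest in both comparisons with NT.

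MRPL1, a protein of the stalk beside the site where spent tRNA leaves, had the highest log2 fold over CON. It stood at 36.3 CPM in NT, with 31.4 in CON and 38.4 in GSK484, lowest in CON. The log2 fold was 0.29 (counting interval 0.22 to 0.37), and its counts were whole. With the all-gene median set to 0, TPM gave 0.27, and the trend-removed value described below was 0.20. MRPS10, a small subunit protein with divided reads, was at 84.2, 75.4 and 82.2 CPM, also lowest in CON, with a log2 fold of 0.12 (0.075 to 0.17). MRPL4, part of the peptide exit tunnel, was at 139.6, 154.7 and 158.9 CPM, and MRPS9 at 62.5, 58.5 and 61.0 CPM. Their log2 folds were 0.039 (0.0035 to 0.073) and 0.060 (0.0029 to 0.12), at the edge of counting error.

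MRPS36 was the lowest of the members against CON. It stood at 21.5 CPM in NT, with 26.6 in CON and 21.1 in GSK484, highest in CON, and its log2 fold was -0.33 (-0.42 to -0.24). Its effective length relative to all genes was 12.2% shorter in GSK484 than in CON, and its reads were divided, so the centred TPM gave only -0.13. MRPS18C was at 37.0, 42.9 and 36.0 CPM, again highest in CON, with -0.25 (-0.32 to -0.18). MRPL57, with whole counts, was at 52.7, 60.1 and 50.6 CPM, with -0.25 (-0.31 to -0.19). MRPS11, on the platform of the small subunit, was at 45.3, 54.0 and 46.3 CPM, with -0.22 (-0.29 to -0.16). MRPL23, at the mouth of the exit tunnel, was at 61.9, 74.9 and 65.3 CPM, with -0.20 (-0.25 to -0.14). In all of these, chosen as low against CON, the CON library was the high one, as for 61 of 76 members by CPM. The share of all genes highest in CON was not computed. NT and GSK484 were within counting error of each other except for MRPL23 (log2 fold of GSK484 against NT 0.077, 0.019 to 0.14).

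MRPL50 was lower in GSK484 beyond counting error than in both other libraries, at 46.2 CPM in NT, with 47.2 in CON and 40.8 in GSK484. Its log2 fold was -0.21 (-0.28 to -0.14) against CON and -0.18 (-0.25 to -0.11) against NT. ZNF189, which starts near it on the opposite strand, was at 11.1, 8.40 and 9.73 CPM, higher in GSK484 than in CON (log2 fold 0.21, 0.066 to 0.36). MRPL12 was at 291.7, 327.0 and 326.9 CPM, so GSK484 and CON were level (log2 fold -5e-04, interval -0.025 to 0.024). MRPL58, a peptidyl-tRNA hydrolase built into the ribosome, was at 70.7, 76.5 and 71.5 CPM (-0.097, -0.15 to -0.046). MRPS12, at the decoding centre, was at 176.3, 191.2 and 192.1 CPM (0.0065, -0.025 to 0.038). MRPS2 was likewise within counting error (-0.021, -0.053 to 0.011), at 170.2, 186.0 and 183.3 CPM.

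Against NT, GSK484 was a little higher for most members. The median log2 fold was 0.043 by CPM (all genes -0.0028), 0.033 by TPM (all genes -0.0039) and 0.015 with the trend removed. By CPM, 32 members were higher, 8 lower and 36 within counting error, where 27.3% of all genes were higher and 29.5% lower. A 1.2-fold difference was reached by 2 members, both higher, MRPL30 and MRPL2, and by none lower, against 7.07% and 10.5% of all genes. At 2-fold, 0.545% of all genes were called. In deposited TPM 26 members were higher and 11 lower, where 27.5% and 30.4% of all genes were.

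MRPL2, a core protein beside the peptidyl transferase centre, was at 39.6 CPM in NT, with 48.4 in CON and 48.4 in GSK484, low only in NT. Its log2 fold against NT was 0.29 (0.22 to 0.36), and its reads were divided. MRPL41 was at 88.9, 103.7 and 103.1 CPM, with 0.21 (0.17 to 0.26). MRPL53 was at 53.9, 65.2 and 61.7 CPM, with 0.20 (0.13 to 0.26). For MRPL4 and MRPL12 the values were 0.19 (0.15 to 0.22) and 0.16 (0.14 to 0.19). With the trend removed (below), MRPL2 had 0.18 and MRPL53 0.098, while MRPL41 had -0.066, MRPL12 -0.030 and MRPL4 0.0024. These genes, chosen as higher against NT, were all lowest in NT by CPM, as 55 of 76 members were. The share of all genes lowest in NT was not computed.

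By the interval bound nearest 0, MRPL19 came first and MRPL50 (above) next among the members lower against NT. MRPL19 was at 83.7 CPM in NT, with 80.3 in CON and 74.5 in GSK484, and its log2 fold was -0.17 (-0.22 to -0.12). MRPL49, which starts beside the ribosomal gene FAU, was at 79.8, 79.6 and 71.8 CPM, with -0.15 (-0.20 to -0.097). MRPL3, a core protein of the large subunit, was at 224.5, 216.9 and 205.7 CPM, with -0.13 (-0.16 to -0.095). MRPL37 was at 180.6, 189.7 and 172.9 CPM, with -0.062 (-0.097 to -0.027). MRPL42 was at 50.8, 46.4 and 47.6 CPM, with -0.094 (-0.16 to -0.027). Of these, MRPL19, MRPL49, MRPL3 and MRPL37 were lowest in GSK484, and MRPL42 in CON. With the trend removed (below), MRPL50 had 0.0335 and MRPL42 0.0006, while MRPL19, MRPL49, MRPL3 and MRPL37 stayed below 0.

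By CPM, CON against NT had the largest median log2 fold of the 3 comparisons. It did not in deposited TPM, or with the trend and its interaction removed. Relative to the all-gene median, TPM gave 0.037 for GSK484 against NT and -0.078 for GSK484 against CON. CON against NT was again the largest there, at 0.11. The median log2 fold was 0.14 by CPM (middle 50% of members 0.075 to 0.19; all genes 0.027) and 0.023 by TPM (all genes -0.083), and it turned to -0.018 with the trend removed. By CPM, 60 members were higher, 7 lower and 9 within counting error, against 35.5% and 29.4% of all genes. At 1.2-fold, 6 members were higher and none lower, where 10.2% and 17.2% of all genes passed. At 2-fold, 1.68% of all genes were called. In deposited TPM, 26 members were higher and 16 lower, against 17.5% and 46.9% of all genes. CON was the highest of the 3 libraries for 61 of 76 members by CPM and NT the lowest for 55, while by TPM 28 were highest in CON, 32 in GSK484 and 16 in NT. This order was not counted over all genes, so these counts have no background share.

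MRPL54 was at 42.7 CPM in NT, with 52.8 in CON and 45.8 in GSK484, with a log2 fold of 0.31 (0.24 to 0.37) for CON against NT and whole counts. MRPL2 and MRPL23 gave 0.29 (0.22 to 0.36) and 0.27 (0.22 to 0.33), and MRPL53 gave 0.27 (0.22 to 0.33). MRPS36 gave 0.30 (0.21 to 0.40). With the trend removed (below), MRPL54 had -0.022, MRPL2 0.028, MRPL23 -0.044, MRPL53 -0.0035 and MRPS36 0.58. The members lower in CON were MRPL1 (-0.21, -0.29 to -0.13), MRPS10 (-0.16, -0.21 to -0.11), MRPL42 (-0.13, -0.19 to -0.065), MRPS9 (-0.095, -0.15 to -0.038), MRPS27 (-0.083, -0.13 to -0.039), MRPL19 (-0.060, -0.11 to -0.010) and MRPL3 (-0.050, -0.080 to -0.020). The effective length of MRPL42 relative to all genes was 14.2% shorter in CON than in NT, and its centred TPM gave 0.053 in place of a lower value. With the trend removed, MRPS9 had -0.14, MRPL1 -0.0165, MRPS10 0.0064, MRPL42 0.045, MRPS27 0.067, MRPL19 0.17 and MRPL3 0.032 for CON against NT. The comparisons share libraries, so a low value in CON enters both that with GSK484 and that with NT.

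MRPL30 had the largest difference of all members, and it rests on divided reads. It was at 9.18 CPM in NT, with 17.3 in CON and 14.8 in GSK484, a log2 fold of 0.91 (0.78 to 1.05) for CON against NT and 0.69 (0.55 to 0.83) for GSK484 against NT. A protein-coding gene without a common name (ENSG00000241962) overlaps it on the same strand and was at 62.3, 60.0 and 53.3 CPM. Both genes together had 71.5, 77.3 and 68.1 CPM. MRPL30 was assigned 12.8% of their joint expected counts in NT, 22.4% in CON and 21.8% in GSK484. The log2 ratio of the joint CPM was 0.11 for CON against NT and -0.071 for GSK484 against NT. The effective length of MRPL30 relative to all genes was 25.6% longer in CON and 27.8% longer in GSK484 than in NT. Against NT, the share assigned to MRPL30 thus differed more than the joint CPM of the locus.

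**Figure D3:**
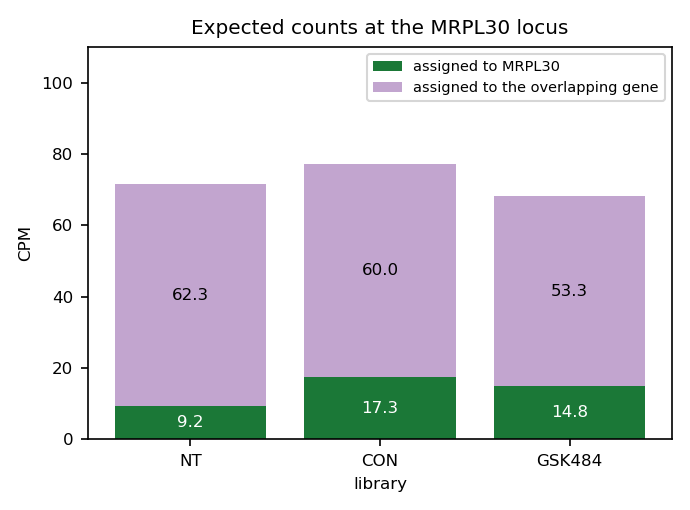
CPM assigned to MRPL30 (green, bottom) and to the protein-coding gene that overlaps it on the same strand (purple, top) in each library. The sum is 71.5 in NT, with 77.3 in CON and 68.1 in GSK484, while the part given to MRPL30 is 9.18, 17.3 and 14.8.

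By CPM, subunits and origins gave like values. For GSK484 against CON the large subunit had a median log2 fold of -0.091 (2 of 50 higher, 32 lower) and the small subunit -0.065 (2 of 25 higher, 14 lower). For GSK484 against NT the medians were 0.044 (22 higher, 7 lower) and 0.043 (10 higher, 1 lower), and for CON against NT 0.15 (40 higher, 4 lower) and 0.13 (19 higher, 3 lower). Members with a bacterial counterpart had medians of -0.084, 0.052 and 0.15 in the same order, and those named as mitochondria-specific -0.077, 0.031 and 0.13. With the trend removed, members with a bacterial counterpart had a median of 0.025 for GSK484 against CON (27 of 45 above 0). Those named as mitochondria-specific had -0.031 (10 of 30 above 0). No difference between these groups was tested.

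MRPS11 and MRPL46, the pair with back-to-back starts, were both highest in CON by CPM, as 61 of 76 members were. MRPL46 was at 34.7 CPM in NT, with 39.0 in CON and 35.8 in GSK484. Its log2 fold was -0.12 (-0.20 to -0.051) for GSK484 against CON and 0.17 (0.093 to 0.24) for CON against NT, beside -0.22 and 0.25 for MRPS11. Over the 25 members with a divergent partner of at least 1 CPM, this pair counted from both sides, 21 members were highest in CON and 12 partners were, while 7 partners were highest in NT and 6 in GSK484. In 10 of the 25 the member and its partner were highest in the same library.

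Because log2 folds in these libraries went with the GC content and length of genes, a smooth trend on both was fitted to 8656 protein-coding genes and removed. The r squared of that trend was 0.349 for GSK484 against CON, 0.432 for GSK484 against NT and 0.59 for CON against NT. After removal the members' medians were -0.0084, 0.015 and -0.018. The counts became 27 higher and 22 lower for GSK484 against CON (25.7% and 25.5% of all genes), 21 and 21 for GSK484 against NT (23.6% and 22.5%) and 25 and 28 for CON against NT (27.2% and 25.6%). The sign of a member's log2 fold differed from that by CPM for 32, 32 and 44 of 76 members.

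**Figure D4:**
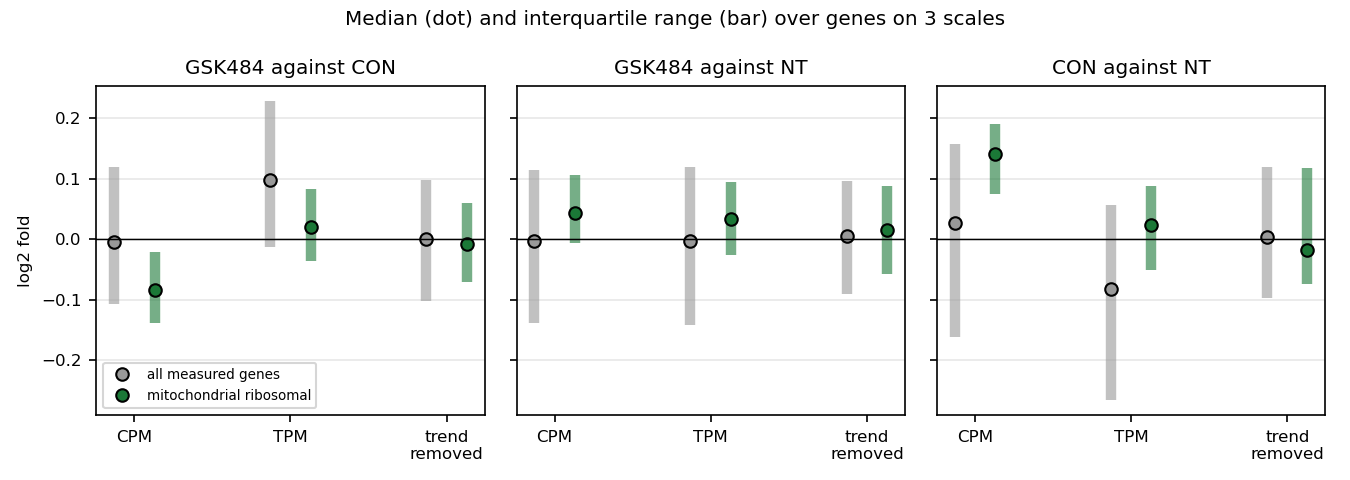
Median (dot) and interquartile range (bar) of log2 folds over all measured genes (grey) and the 76 members (green) by CPM, by deposited TPM and by CPM after removal of the GC and length trend. The members' median is -0.084, 0.019 and -0.0084 for GSK484 against CON and 0.14, 0.023 and -0.018 for CON against NT.

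Along GC content the members' log2 folds had a shallower slope than those of other genes taken over all lengths, as a description with no test of the slopes. For CON against NT, the log2 fold of 8580 other protein-coding genes of at least 10 CPM increased by 0.19 per 10 percentage points of GC content, and that of the members by 0.041. For GSK484 against CON the slopes were -0.076 and 0.0011, and for GSK484 against NT 0.12 and 0.042. Length went with this: in the 1094 other genes between 682.6 and 1162 bases, the members' length quartiles, the slopes were 0.093, -0.017 and 0.076 in the same order of comparisons. The 26 members of lowest GC content (33.5% to 43.8%) had a median log2 fold of 0.068 for CON against NT, where the fitted trend gave -0.14. The 302 other genes of such low GC content and member-like length had 0.012, and the 2756 of any length -0.22. The 26 of highest GC content (52.2% to 71.9%) had 0.17, and the fitted trend 0.26. With GC and length allowed to act jointly in the fit, the lowest-GC members had 0.082 after removal and the highest-GC members -0.029, against 0.17 and -0.082 with the additive fit.

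**Figure D5:**
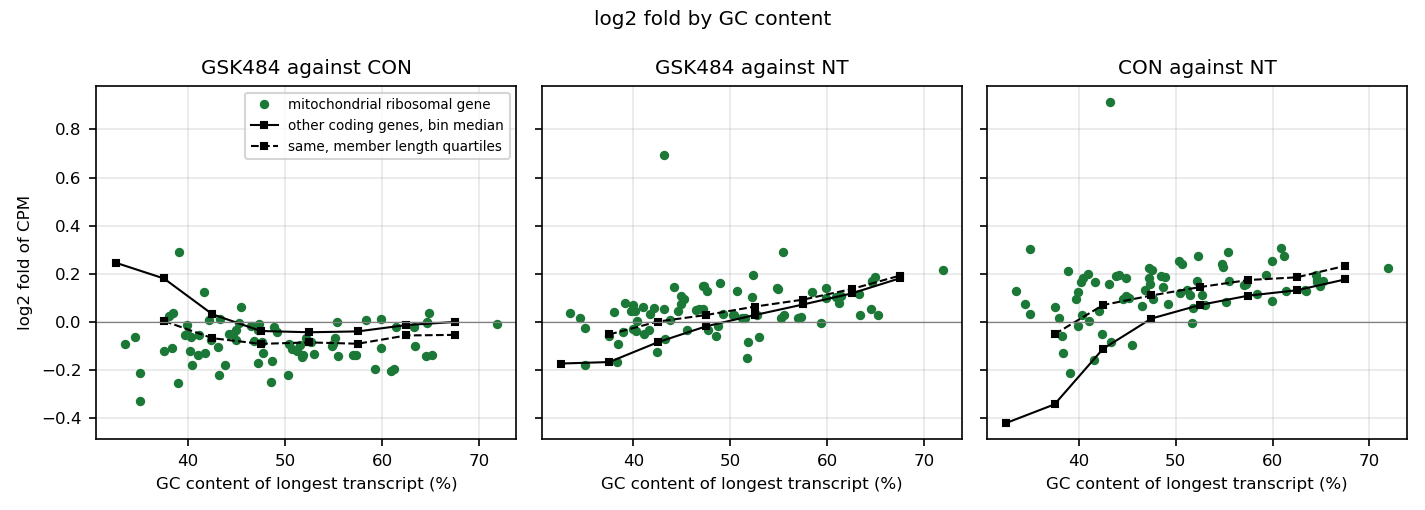
log2 fold of CPM against the GC content of the longest annotated transcript for the members (green points), with medians in bins of 5 percentage points for other protein-coding genes of at least 10 CPM (solid line) and for those within the members' length quartiles (dashed line; bins of fewer than 20 genes are left out). In CON against NT the solid line climbs with a slope of 0.19 per 10 percentage points, the genes of like length with 0.093 and the members with 0.041.

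Single members of low GC content show what the adjustment does. MRPL13 (GC 33.5%) was at 61.5 CPM in NT, with 67.1 in CON and 63.0 in GSK484, and its log2 fold for CON against NT went from 0.13 to 0.50 with the trend removed. MRPS30 went from 0.076 to 0.47, MRPS36 from 0.30 to 0.58 and MRPL50 from 0.031 to 0.54. The spread over members also grew, from an SD of 0.139 to 0.194, while that of 7306 other protein-coding genes of like CPM went from 0.261 to 0.167. For GSK484 against CON the members' SD was 0.092 by CPM, against 0.177 in those genes, and 0.133 against 0.144 with the trend removed.

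Some members were called in the same direction by CPM, by TPM with the all-gene median set to 0 and with the trend removed. The trend here was the additive fit, and calls on 3 scales with the interaction were not made. For GSK484 against CON the additive fit gave the 26 lowest-GC members a median of -0.10, against -0.060 with the interaction. In GSK484 against CON these were 4 higher (MRPL1, MRPS10, MRPL4 and MRPS9) and 17 lower, where 16.0% and 15.1% of all genes passed. The 17 lower were MRPL3, MRPL13, MRPL19, MRPL22, MRPL30, MRPL32, MRPL37, MRPL40, MRPL46, MRPL49, MRPL50, MRPL57, MRPS6, MRPS18C, MRPS22, MRPS34 and MRPS36. Of these, only MRPL37, MRPL40, MRPL49, MRPL57 and MRPS34 had a GC content above 43.8%, the upper limit of the lowest-GC members. In GSK484 against NT there were 10 higher and 5 lower, against 14.1% and 14.2% of all genes. The 5 lower were MRPL3, MRPL10, MRPL19, MRPL37 and MRPL49. On these 3 scales, with TPM centred, MRPL3, MRPL19, MRPL37 and MRPL49 thus were lower in GSK484 than in each other library. Both comparisons use the same GSK484 library, and the share of all genes called lower in both was not computed. In deposited TPM, MRPL3 (161.8 in CON, 166.0 in GSK484) and MRPL19 (67.1 and 69.2) were higher in GSK484 than in CON. In CON against NT there were 15 higher and 1 lower (MRPS9), against 12.7% and 13.4% of all genes.

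By CPM, the 5 mitoribosome proteins with other names were close to the members, with a median log2 fold of -0.067 for GSK484 against CON. Of them 1 was higher and 4 lower, where 26.9% and 27.4% of all genes were. In TPM the median of these 5 was 0.030 (3 higher, 1 lower), below the 0.097 of all genes, of which 49.9% were higher and 11.8% lower. With the trend removed it was 0.019 (1 higher, 1 lower, where 25.7% and 25.5% of all genes were). PTCD3, a pentatricopeptide protein of the small subunit, was the higher one by CPM, at 91.1 CPM in NT, with 79.8 in CON and 86.0 in GSK484 (0.11, 0.059 to 0.16). CHCHD1 was at 50.62, 57.26 and 49.99 CPM (-0.20, -0.26 to -0.14) and GADD45GIP1 at 103.2, 119.0 and 109.2 CPM (-0.12, -0.16 to -0.082). AURKAIP1 had -0.067 (-0.096 to -0.038) and DAP3, a GTP-binding protein of the small subunit, -0.054 (-0.087 to -0.022).

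Of 29 mitoribosome assembly factors, 27 were matched, with a median log2 fold of -0.069 for GSK484 against CON (5 higher, 14 lower, where 26.9% and 27.4% of all genes were). In TPM their median was 0.050 (13 higher, 5 lower), below the 0.097 of all genes, of which 49.9% were higher and 11.8% lower. With the trend removed it was -4e-04 (4 higher, 5 lower, where 25.7% and 25.5% of all genes were). FASTKD2, which acts on the large ribosomal RNA, was at 64.3 CPM in NT, with 42.9 in CON and 55.4 in GSK484, lowest in CON, with 0.37 (0.31 to 0.43). GTPBP10, a GTPase of large subunit assembly, was at 15.4, 12.4 and 15.1 CPM, with 0.29 (0.17 to 0.41). NOA1, a GTPase of small subunit assembly, was at 36.3, 40.0 and 33.9 CPM, with -0.24 (-0.31 to -0.16). With the trend removed these became 0.13, 0.11 and -0.24, so only that of NOA1 kept its size.

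The 18 translation factors had a median of -0.051 by CPM (5 higher, 8 lower, beside the same 26.9% and 27.4%), 0.049 by TPM (7 higher, 4 lower) and -0.024 with the trend removed (3 higher, 6 lower). All genes had a median of 0.097 by TPM, with 49.9% higher and 11.8% lower. With the trend removed 25.7% of all genes were higher and 25.5% lower. LRPPRC, which stabilises mitochondrial mRNAs, was at 257.8 CPM in NT, with 189.7 in CON and 236.1 in GSK484, with 0.32 (0.29 to 0.35). SLIRP, its binding partner, went the other way, at 108.6, 127.5 and 112.5 CPM, with -0.18 (-0.22 to -0.14). MTIF2, the mitochondrial initiation factor, was at 60.7, 46.5 and 55.3 CPM, with 0.25 (0.19 to 0.31). With the trend removed LRPPRC had 0.19, MTIF2 0.17 and SLIRP -0.081. The 20 mitochondrial aminoacyl-tRNA synthetases had a median of -0.030 by CPM (2 higher, 6 lower, beside 26.9% and 27.4%), 0.078 by TPM (9 higher, 3 lower) and -0.019 with the trend removed (4 higher, 4 lower). Their TPM median too lay below the 0.097 of all genes, beside the same TPM shares of 49.9% and 11.8%. PARS2, the prolyl-tRNA synthetase, was at 5.23, 5.13 and 3.99 CPM, with -0.36 (-0.57 to -0.15), and was lowest in GSK484. HARS2, the histidyl-tRNA synthetase, was at 56.5, 59.0 and 53.9 CPM, with -0.13 (-0.19 to -0.073).

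For cytosolic ribosomal protein genes, of which 84 were measured, the median log2 fold was -0.15 for GSK484 against CON, 0.050 against NT and 0.21 for CON against NT, the signs of the members' medians by CPM. By TPM these medians were -0.052, 0.022 and 0.089, and with the trend removed 0.0066, -0.0014 and -0.021. The 13 mitochondrially encoded protein genes, whose mRNAs the mitochondrial ribosome translates, had -0.54, -0.29 and 0.21 by CPM. By TPM they had -0.44, -0.31 and 0.080, and with the trend removed -0.36, -0.25 and 0.11. All mitochondrially encoded genes took 4.78% of counts in NT, 5.33% in CON and 4.03% in GSK484.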

How the data were processed

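Per the labels' protocols, TRIzol RNA went into a strand-keeping total RNA kit and was read from both ends over 125 bp. Per the submitters' processing notes, RSEM and hg19 were used. The aligner, the RSEM version, the annotation release and the strand setting were not given in the sources used here, so values of overlapping genes are uncertain. The authors deposited expected counts per gene, which need not be whole, and TPM values scaled to 1 total per library. FPKM values were not used.

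Expected counts were scaled to CPM with TMM factors (edgeR 4.0.16, R 4.3.3) of 1.01 in NT, 0.981 in CON and 1.01 in GSK484. log2 folds used a prior count of 0.5, and intervals were computed on rounded counts. Genes were measured from 1 CPM in 1 of both libraries. A member was called higher or lower where its counting interval excluded 0, and counts at folds of 1.2 and 2 are given too. TPM folds used log2(TPM + 0.1) with the same interval width. The trend used natural splines (4 degrees of freedom each) over protein-coding genes of at least 10 CPM. Counts were called whole within 0.005 in all libraries, which held for 45 members.

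GENCODE 29 and RefSeq belong to another build than the deposited tables, so GENCODE served only for names, types, GC content (known for 97.2% of measured genes) and neighbours. Members and lists were chosen with earlier results of these data known. Named genes were the 6 highest and 4 lowest by TPM, up to 6 higher and 6 lower per comparison by the interval bound nearest 0, a set of structural landmarks, and up to 3 per related list. MRPL13, MRPL46, ZNF189, the partners of divergent starts, COL1A1, CD68, CDH5 and the genes called on all 3 scales were named after their values were seen. The alternatives were DESeq2 1.42.0 size factors, total counts, no mitochondrially encoded genes, TPM, the trend, other filters and prior count, whole counts only, and other-named subunits added.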

Additional observations from a re-analysis of the deposited data

How the results depend on the processing

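No paired analysis was possible because each group has 1 library. Of 108 alternative medians and counts of members, 81 stayed within the tolerance (a median moved by less than the members' median interval half-width of 0.0514 to 0.0558, or a count within 1.5 times) and 27 did not. That tolerance is wide for small medians: within it, GSK484 against NT went from 0.0429 to 0.0154 with the trend removed and 0.0096 with its interaction, and GSK484 against CON from -0.0838 to -0.0438 with total counts. Deposited TPM turned the median log2 fold of GSK484 against CON to 0.0194 (12 lower, 28 higher) and lowered that of CON against NT to 0.0228 (16 lower, 26 higher), while the median of all genes moved from -0.0051 to 0.0973 and from 0.0272 to -0.0829. Removing the GC and length trend gave -0.0084 for GSK484 against CON (22 lower, 27 higher), turned CON against NT to -0.0182 (28 lower, 25 higher) and gave 21 lower and 21 higher for GSK484 against NT. With the interaction of GC and length also removed, an alternative chosen after seeing the data, the medians were -0.0129 for GSK484 against CON (24 lower, 15 higher) and 0.0004 for CON against NT (17 lower, 24 higher), with 16 lower and 20 higher for GSK484 against NT. Total count scaling gave 10 higher members for GSK484 against CON. The 45 members with whole counts, a smaller set, gave 1 higher for GSK484 against CON, 18 higher for GSK484 against NT, and 3 lower and 35 higher for CON against NT. The 31 with divided reads gave 3 higher, 14 higher, and 4 lower and 25 higher in the same order. Leaving out MRPL30, also chosen after seeing the data, moved the median of CON against NT from 0.140 to 0.134. The cause of these changes was not tested. Depth limits small differences: for GSK484 against NT the median half-width, 0.0558, exceeds the median log2 fold, and 36 of 76 members lie within counting error. With 1 library per group nothing here measures the spread between cultures.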

Other observations

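The deposited tables also hold 71 pseudogenes named after members, with 32 parent genes. For 53 of them every library had a count of 0, and the highest reached 0.18 CPM. Together they held 73.8 expected counts in CON, 52.6 in GSK484 and 49.0 in NT, so few reads were assigned to them. Of the 76 members, 32 overlapped another measured gene, 25 of them on the opposite strand and 8 on the same strand, and 20 of the 31 members with divided reads overlapped such a gene.

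Members whose windows held an ETS match (29 genes) had a median level of 118 TPM, and the 38 without one 79.6 TPM. Those with a YY1 match (13 genes) had 77.1 TPM, and the 54 without one 110 TPM. The median log2 fold for GSK484 against CON was -0.080 with and -0.076 without an ETS match, and -0.12 with and -0.078 without a YY1 match. The 13 members with an NRF1 match had -0.13 and the 54 without one -0.071. The other motifs went the other way, with -0.060 with and -0.084 without SP1 (18 and 49 genes). For NF-Y (7 and 60 genes) these were -0.0093 and -0.084. With the trend removed, the values with and without a match were -0.022 and 0.0195 for NRF1, and -0.026 and 0.0195 for YY1. They were -0.0089 and -0.0038 for ETS, 0.0072 and -0.0089 for SP1, and -0.037 and -0.0038 for NF-Y. These are descriptions of members chosen by name, and no difference between them was tested.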
